A study of Arabidopsis thaliana with 16 samples.

Results

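The 10 genes described here carry the breakdown of stored seed oil and the conversion of its carbon in seedlings of Arabidopsis thaliana: SDP1 (AT5G04040), LACS6 (AT3G05970), LACS7 (AT5G27600), KAT2 (AT2G33150), MFP2 (AT3G06860), CSY2 (AT3G58750), ICL (AT3G21720), MLS (AT5G03860), PCK1 (AT4G37870) and NADP-ME1 (AT2G19900). They were chosen by their function, with earlier results of these data known. Each identifier was looked up among the 35814 rows of the 4 expression tables, where the 10 genes filled 18 rows. In all, 8 of the 10 stood at 1 row. LACS6 stood at 8 rows of 1 locus and CSY2 at 2 rows of 1 locus, so these genes entered no count. The study sequenced polyadenylated RNA from roots and from shoots of 3-day-old seedlings that had grown in the dark in hydrocarbon-free air and then received 10 ppm ethylene or air for 4 h. The genotypes were cbp20, a mutant of the cap-binding protein CBP20 in the Columbia background, and the wild type Col-0. The 16 libraries, 2 in each of 8 groups, came from cbp20 roots in ethylene and in air, cbp20 shoots in ethylene and in air, Col-0 roots in ethylene and in air, and Col-0 shoots in ethylene and in air. The number of seedlings behind a library was not stated in the methods.

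A dark-grown Arabidopsis seedling lives on oil laid down in the seed. The lipase SDP1 frees fatty acids at the oil body surface, and the peroxisome activates them and shortens them by beta-oxidation to acetyl-CoA. The glyoxylate cycle joins acetyl-CoA units into organic acids, with isocitrate lyase (ICL) and malate synthase (MLS) as its own steps, and phosphoenolpyruvate carboxykinase (PCK1) leads these acids towards sugar.

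Each value is the FPKM (fragments per kilobase of transcript, scaled to the mapped fragments) that Cuffdiff gave for a whole group, as 1 pooled value for its 2 libraries. No value per library was at hand, so no value has an SD, no difference has a replicate check, and no test was run. A gene was called when it had at least 1 FPKM in either group and differed by at least 1.5-fold, and the share of all rows called by the same rule stands beside each first count. The read depth of the libraries is unknown. Positions of genes are those of the tables, on the TAIR10 build. Because the tissues were taken whole, fewer cells of a type and less RNA per cell cannot be told apart. CBP20 was at 0.509 to 2.14 FPKM in the cbp20 groups and at 23.8 to 35.8 FPKM in the Col-0 groups, and the ethylene-responsive genes ETR2, EBF2 and ERS2 were called higher in ethylene in all 4 tables. Of 5 root markers, CASP1, COBL9 and LRL3 were higher in roots, whereas SCR had 18.4 to 26.9 FPKM in roots and 15.6 to 19.1 FPKM in shoots and PYK10 had 3380 to 9079 FPKM in roots and 4931 to 8894 FPKM in shoots, and the summed level of the whole list was 4602 to 9794 FPKM in roots and 5231 to 9096 FPKM in shoots. The summed level of 5 shoot markers was 97.5 to 472 FPKM in roots and 11182 to 15920 FPKM in shoots. No marker of either list was at 0 in any group.

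The promoters of ICL, MLS and NADP-ME1 are shown because these 3 genes carried most of the differences described below. Each run holds the 250 bases before the gene start in RefSeq (TAIR10.1), read 5′ to 3′ on the strand of the gene, which is the minus strand for all 3. The positions are chr3:7656054-7656303 for ICL, chr5:1034974-1035223 for MLS and chr2:8595560-8595809 for NADP-ME1. Capitals mark matches to ACGTG, the core of the abscisic acid response element and part of the G-box CACGTG.
ICL: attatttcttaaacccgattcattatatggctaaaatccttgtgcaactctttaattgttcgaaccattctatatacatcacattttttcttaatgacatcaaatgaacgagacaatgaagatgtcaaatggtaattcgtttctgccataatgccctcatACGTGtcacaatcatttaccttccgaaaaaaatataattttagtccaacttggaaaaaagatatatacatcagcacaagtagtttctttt
MLS: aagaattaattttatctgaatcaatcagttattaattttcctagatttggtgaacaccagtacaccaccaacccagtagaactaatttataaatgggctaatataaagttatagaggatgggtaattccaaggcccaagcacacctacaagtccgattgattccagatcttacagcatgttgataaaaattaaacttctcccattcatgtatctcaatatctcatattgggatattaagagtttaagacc
NADP-ME1: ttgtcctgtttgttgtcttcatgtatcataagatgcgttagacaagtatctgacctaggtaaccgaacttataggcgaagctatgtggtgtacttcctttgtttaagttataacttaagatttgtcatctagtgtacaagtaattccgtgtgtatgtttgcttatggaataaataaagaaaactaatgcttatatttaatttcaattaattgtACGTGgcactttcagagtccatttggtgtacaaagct

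Both strands of the promoters of all 10 genes were searched for CACGTG (G-box), its inner run ACGTG, the seed element CATGCA (RY element) and GCCGCC (the GCC box, bound by ethylene response factors). ACGTG stood in 3 of the 10 promoters, those of ICL, PCK1 and NADP-ME1, with its first base 90, 87 and 37 bases before the gene start, and in 22.9% of 27443 promoters of protein-coding genes. The G-box, the RY element and the GCC box were in 0 of the 10, and in 6.49%, 8.43% and 1.87% of all promoters. A match describes the letters only and is not a sign that a factor binds there.

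**Figure D1:**
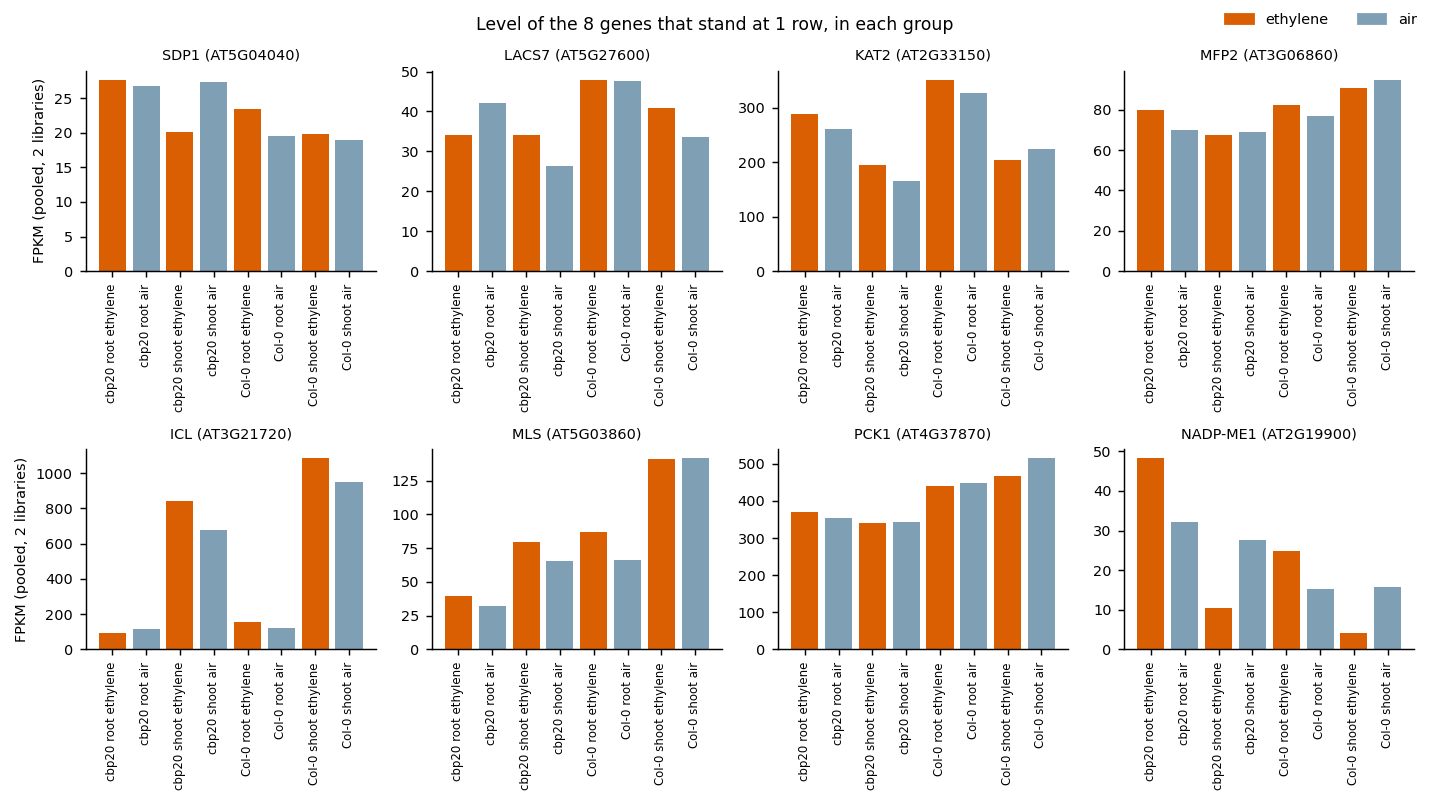
FPKM (vertical axes, from 0, 1 pooled value for 2 libraries) of the 8 genes that stand at 1 row, in cbp20 and Col-0 roots and shoots, with ethylene in orange and air in blue. ICL and MLS were higher in shoots than in roots of both genotypes, and the vertical scale differs from gene to gene.

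Most of the genes were well expressed in every group. PCK1, which turns oxaloacetate into phosphoenolpyruvate, had 342 to 514 FPKM and lay above 97.7% to 98.7% of the rows with at least 1 FPKM. KAT2, the main 3-ketoacyl-CoA thiolase of peroxisomal beta-oxidation, had 165 to 351 FPKM, above 94.5% to 97.9% of these rows. ICL covered the widest range in FPKM, 93.7 to 1083 FPKM, and in its highest group, Col-0 shoots in ethylene, held place 60 from the top of all used rows. At the low end, NADP-ME1, a cytosolic malic enzyme that makes pyruvate from malate, lay above 19.6% of the rows in its lowest group and 79.2% in its highest. The median of all rows with at least 1 FPKM was 13.97 to 14.99 FPKM in the 8 groups.

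The first enzyme of the route, SDP1 on chromosome 5 (1089342-1093179), had similar levels in all groups. It had 27.6 FPKM in ethylene and 26.7 FPKM in air in cbp20 roots, and 20.2 FPKM in ethylene and 27.4 FPKM in air in cbp20 shoots. In Col-0 it had 23.4 FPKM in ethylene and 19.6 FPKM in air in roots, and 19.8 FPKM in ethylene and 19.0 FPKM in air in shoots. The highest group was 1.46-fold above the lowest, which is less than the 1.5-fold asked of a call between any 2 groups.

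LACS7 (chromosome 5, 9742576-9747005), a peroxisomal acyl-CoA synthetase that activates fatty acids for beta-oxidation, had 34.0 FPKM in ethylene and 42.1 FPKM in air in cbp20 roots, and 34.1 FPKM in ethylene and 26.4 FPKM in air in cbp20 shoots. In Col-0 roots it had 47.8 FPKM in ethylene and 47.7 FPKM in air, and in Col-0 shoots 40.9 FPKM in ethylene and 33.7 FPKM in air. Roots and shoots thus stood apart by the minimum in 1 of 4 settings, cbp20 in air, where roots were 1.60-fold higher.

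LACS6, the other peroxisomal acyl-CoA synthetase, could not be given a single value, because its identifier labels 8 rows of 1 locus on chromosome 3 (1786318-1822840) that also covers neighbouring genes. Only 2 of these rows were at or above 1 FPKM in all 8 groups. The first of them had 4.06 to 13.7 FPKM and the other 50.9 to 118 FPKM. In cbp20 shoots these 2 rows moved in opposite directions, with 5.12 FPKM in ethylene and 11.2 FPKM in air on the first row and 118 FPKM in ethylene and 50.9 FPKM in air on the other. The other 6 rows held values near 0 in some groups and up to 9047 FPKM in others. Which row stands for LACS6 could not be settled from the tables, and no direction is given for it.

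Of the beta-oxidation genes, KAT2 was higher in roots than in shoots and MFP2 varied less. KAT2 (chromosome 2, 14047478-14051153) had 289 FPKM in ethylene and 261 FPKM in air in cbp20 roots, 195 and 165 FPKM in ethylene and in air in cbp20 shoots, 351 and 327 FPKM in Col-0 roots, and 205 and 224 FPKM in Col-0 shoots. Roots were above shoots by 1.48-fold and 1.58-fold in cbp20 in ethylene and in air, and by 1.71-fold and 1.46-fold in Col-0. MFP2 (chromosome 3, 2161869-2166349), the multifunctional protein that hydrates and then oxidizes the fatty acyl chain, had 79.9 FPKM in ethylene and 70.0 FPKM in air in cbp20 roots and 67.3 and 69.1 FPKM in cbp20 shoots. In Col-0 it had 82.2 FPKM in ethylene and 76.7 FPKM in air in roots, and 90.6 FPKM in ethylene and 94.6 FPKM in air in shoots. The highest MFP2 value was 1.41-fold above the lowest.

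CSY2, a peroxisomal citrate synthase that brings acetyl-CoA into the cycle, stood at 2 rows of chromosome 3 (21724314-21727735). The second row held values in every group, with 53.1 FPKM in ethylene and 49.2 FPKM in air in cbp20 roots, 28.8 and 28.5 FPKM in cbp20 shoots, 56.2 and 47.7 FPKM in Col-0 roots, and 26.6 and 30.3 FPKM in Col-0 shoots. On this row roots were above shoots of the same genotype and treatment by 1.57-fold to 2.11-fold. The other row was near 0 except for 11.4 FPKM in cbp20 roots in ethylene and 2.07 FPKM in cbp20 shoots in air.

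ICL (chromosome 3, 7652487-7656011) differed mostly between tissues. It had 93.7 FPKM in ethylene and 117 FPKM in air in cbp20 roots, and 156 FPKM in ethylene and 120 FPKM in air in Col-0 roots. In cbp20 shoots it had 841 FPKM in ethylene and 679 FPKM in air, and in Col-0 shoots 1083 FPKM in ethylene and 949 FPKM in air. Shoots lay far above roots in both genotypes, while the values in ethylene and in air overlapped.

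MLS (chromosome 5, 1032103-1034973) showed a tissue and a genotype difference at once. It had 39.5 FPKM in ethylene and 31.9 FPKM in air in cbp20 roots, and 86.8 FPKM in ethylene and 66.2 FPKM in air in Col-0 roots. In cbp20 shoots it had 79.6 FPKM in ethylene and 65.8 FPKM in air, and in Col-0 shoots 141 FPKM both in ethylene and in air. The cbp20 shoots thus had MLS levels close to those of Col-0 roots.

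The ratio of ICL to MLS, both on the FPKM scale and so per length of transcript, differed between the groups. It was 2.37 in ethylene and 3.66 in air in cbp20 roots, and 1.80 in ethylene and 1.81 in air in Col-0 roots. In shoots it was 10.6 in ethylene and 10.3 in air in cbp20, and 7.67 in ethylene and 6.71 in air in Col-0. In each tissue and treatment the ratio was higher in cbp20 than in Col-0.

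PCK1 (chromosome 4, 17802694-17806539) had 370 FPKM in ethylene and 354 FPKM in air in cbp20 roots, and 342 FPKM in ethylene and 343 FPKM in air in cbp20 shoots. In Col-0 it had 441 FPKM in ethylene and 449 FPKM in air in roots, and 466 FPKM in ethylene and 514 FPKM in air in shoots. The highest cbp20 value was 370 FPKM and the lowest Col-0 value 441 FPKM, from tables that were normalized separately. How many of all rows keep the genotypes apart in this way was not computed, so this is not read as a trait of PCK1. By the minimum PCK1 was lower in cbp20 only in shoots in air, at 1.50015-fold.

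NADP-ME1 (chromosome 2, 8591899-8595478) differed between ethylene and air, most in shoots. In cbp20 it had 48.2 FPKM in ethylene and 32.1 FPKM in air in roots, and 10.5 FPKM in ethylene and 27.7 FPKM in air in shoots. In Col-0 it had 24.9 FPKM in ethylene and 15.3 FPKM in air in roots, and 4.16 FPKM in ethylene and 15.7 FPKM in air in shoots. Its highest group, cbp20 roots in ethylene, was 11.6-fold above its lowest, Col-0 shoots in ethylene.

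Ethylene against air asks how 4 h of the gas altered these transcripts in each tissue and genotype. NADP-ME1 was the only one of the 8 counted genes to be called. In cbp20 roots its ratio was 1.49958 (log2 ratio 0.58), just under the minimum, so that 0 of 8 genes were called higher or lower, against 13.5% and 15.2% of all 17554 rows tested. In cbp20 shoots it was 2.64-fold lower (log2 ratio -1.40), with 1 of 8 lower against 21.4% and 0 of 8 higher against 15.7% of 17679 rows. In Col-0 roots it was 1.63-fold higher in ethylene (log2 ratio 0.70), so that 1 of 8 genes was called higher against 15.8% of 17520 rows, and 0 of 8 lower against 15.4%. In Col-0 shoots it was 3.78-fold lower in ethylene (log2 ratio -1.92), which made 1 of 8 lower against 21.7% and 0 of 8 higher against 15.4% of 17829 rows. The shares of the 8 genes called were at or below those of all rows in each table.

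The log2 ratios of NADP-ME1 had opposite signs in the 2 tissues in both genotypes, but in roots it was called in Col-0 alone, with log2 ratios of 0.58 in cbp20 roots, -1.40 in cbp20 shoots and 0.70 in Col-0 roots, with -1.92 in Col-0 shoots. In Col-0, the genotype in which both tissues passed the minimum, 2.52% of 16456 rows tested in both tissues were likewise called higher in roots and lower in shoots. In Col-0 shoots 8.97% of all rows changed by more than NADP-ME1 in either direction, and in Col-0 roots 25.3% did. The difference between tissues was not tested.

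The other 7 genes stayed within 1.5-fold in each of the 4 tables. ICL had log2 ratios of -0.32 in cbp20 roots, 0.31 in cbp20 shoots and 0.38 in Col-0 roots, with 0.19 in Col-0 shoots. MLS had 0.31, 0.27, 0.39 and -0.00179 in the same order, the last being 141 FPKM in both groups. The median log2 ratio of the 8 genes was 0.11 in cbp20 roots, 0.12 in cbp20 shoots and 0.18 in Col-0 roots, with -0.03 in Col-0 shoots, beside 0.02, -0.0044, -0.00011 and -0.01 over all rows tested. The lowest log2 ratio among the 7 genes was -0.44, that of SDP1 in cbp20 shoots.

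**Figure D2:**
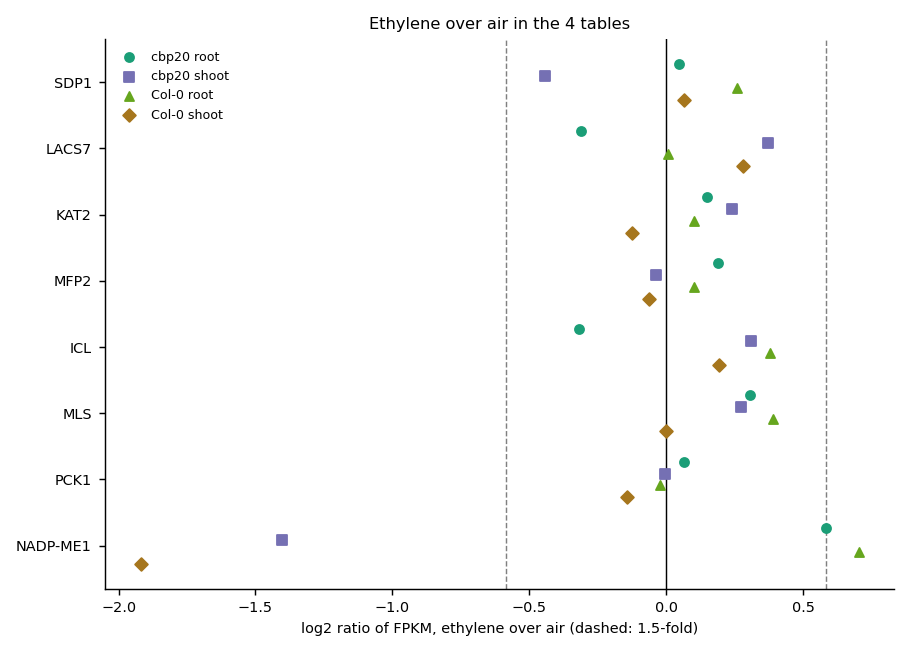
Log2 ratio of FPKM in ethylene over air (horizontal axis) of the 8 genes in cbp20 and Col-0 roots and shoots, with the 1.5-fold minimum as dashed lines. Only NADP-ME1 passed it, at -1.40 in cbp20 shoots, and in Col-0 at 0.70 (roots) and -1.92 (shoots).

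Seed transcripts also differed between ethylene and air. The summed level of 6 seed markers (the cruciferins CRA1, CRB and CRC, the albumin SESA1, and the endosperm genes EXPA2 and EPR1) was 12.8 FPKM in ethylene and 14.3 FPKM in air in cbp20 roots, and 26.1 FPKM in ethylene and 74.97 FPKM in air in cbp20 shoots. In Col-0 it was 37.3 FPKM in ethylene and 99.96 FPKM in air in roots, and 25.4 FPKM in ethylene and 159 FPKM in air in shoots. In shoots of both genotypes this sum, of which CRA1 was the largest part, was lower in ethylene, as NADP-ME1 was. In Col-0 roots the sum was lower and NADP-ME1 higher. Of the markers tested, 1 was called higher and 0 lower of 3 in cbp20 roots, and 0 and 3 of 4 in cbp20 shoots. In Col-0 roots 1 was called higher and 3 lower of 4, and in Col-0 shoots 0 and 6 of 6. The marker called higher in Col-0 roots was EXPA2, at 2.73 FPKM in ethylene and 1.74 FPKM in air. In cbp20 shoots EXPA2 had 5.47 and 4.06 FPKM and was not called. From 3 to 6 of the 6 markers reached 1 FPKM in a group, and 1 of them, SESA1, was at 0 in Col-0 roots in ethylene. The 5 shoot markers summed to 472 FPKM in ethylene and 387 FPKM in air in cbp20 roots and to 97.5 FPKM in ethylene and 173 FPKM in air in Col-0 roots. The part of seed tissue and of shoot tissue in the NADP-ME1 result was not tested.

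**Figure D3:**
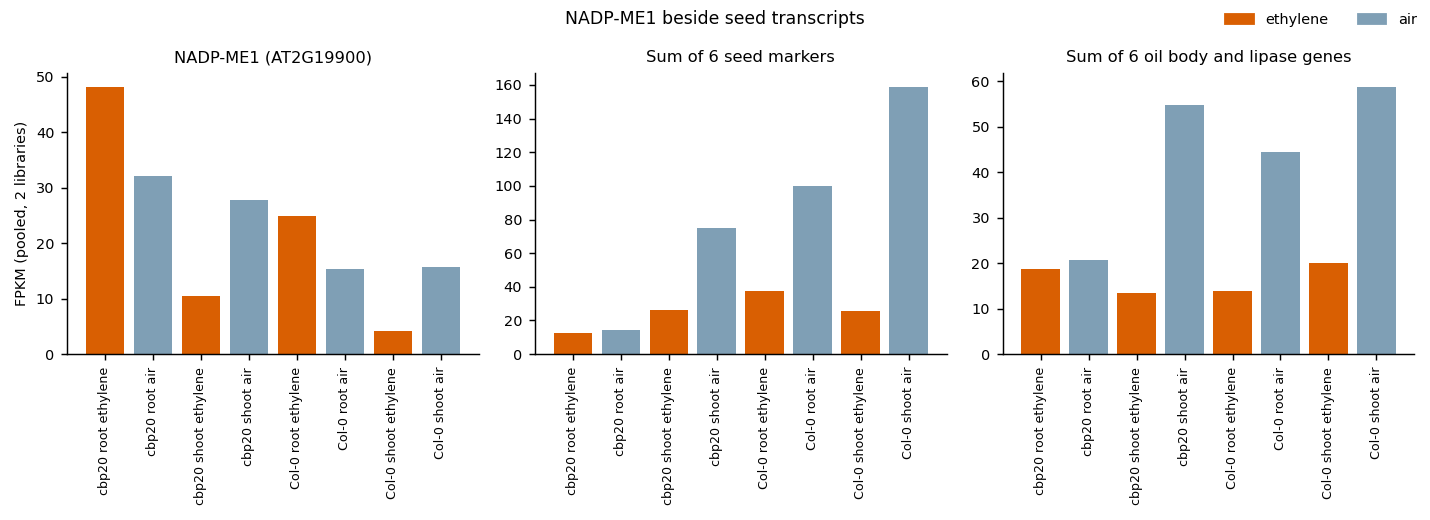
FPKM of NADP-ME1 (left) and summed FPKM of 6 seed markers (middle) and of 6 oil body and lipase genes (right) in each group, ethylene in orange and air in blue, 1 pooled value for 2 libraries, vertical axes from 0. In Col-0 shoots NADP-ME1 was at 4.16 FPKM in ethylene and 15.7 FPKM in air, and the seed markers summed to 25.4 and 159 FPKM. The right panel sums SDP1-LIKE, OLEO1, OLEO2, OLEO4, CLO1 and HSD1, without SDP1, and HSD1 was at 0 in every group.

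The genes around these enzymes were read from lists of 50 further genes of oil bodies, glycerol use, fatty acid import, beta-oxidation, the glyoxylate cycle, gluconeogenesis, malic enzymes and peroxisome assembly, at 46 usable rows. In ethylene 5 were called higher and 0 lower of 42 tested in cbp20 roots, 3 higher and 4 lower of 41 in cbp20 shoots, 5 higher and 6 lower of 43 in Col-0 roots, and 2 higher and 6 lower of 41 in Col-0 shoots. These shares are also no higher than those of all rows given above. Their median log2 ratio was 0.09, 0.08, 0.09 and -0.01 in the same order.

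At the oil body, the oleosins OLEO1 and OLEO2, which coat the stored oil, were called lower in ethylene in 3 of the 4 tables. The share of all rows called lower in 3 of 4 was not computed. OLEO2 had 7.84 FPKM in ethylene and 40.2 FPKM in air in cbp20 shoots (log2 ratio -2.36), 7.03 FPKM in ethylene and 26.0 FPKM in air in Col-0 roots (-1.89), and 13.8 FPKM in ethylene and 41.5 FPKM in air in Col-0 shoots (-1.59). OLEO1 had log2 ratios of -2.34, -2.20 and -3.63 in these tables. In cbp20 roots neither was called, and OLEO4 was called higher at 2.44 FPKM in ethylene and 0.187 FPKM in air. SDP1, the lipase that acts on the coated oil, was not called in any of them.

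In beta-oxidation, ACX1, an acyl-CoA oxidase that catalyses the first step of the spiral and also serves jasmonate synthesis, was called higher in ethylene in all 4 tables. The share of all rows called higher in all 4 was not computed. ACX1 had 241 FPKM in ethylene and 139 FPKM in air in cbp20 roots, 244 and 138 FPKM in cbp20 shoots, 172 and 96.1 FPKM in Col-0 roots, and 196 and 112 FPKM in Col-0 shoots. These are 1.73-fold, 1.77-fold, 1.79-fold and 1.75-fold, while KAT2 and MFP2, which act after it, stayed within 1.5-fold. In the list of 14 or 15 beta-oxidation rows tested per table, 0 to 1 others were called higher and 0 to 1 lower.

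In the steps that lead to sugar, PCK1 was steady, and its paralogue PCK2 was called higher in ethylene in Col-0 roots, with 20.1 FPKM in ethylene and 11.7 FPKM in air. PCK2 was under 1 FPKM in all 4 shoot groups, where PCK1 had at least 342 FPKM. PPDK, which makes phosphoenolpyruvate from pyruvate, the product of NADP-ME1, was called higher in ethylene in roots of both genotypes, at 11.1 FPKM in ethylene and 5.995 FPKM in air in cbp20 and 9.73 and 6.18 FPKM in Col-0. In shoots PPDK was not called.

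**Figure D4:**
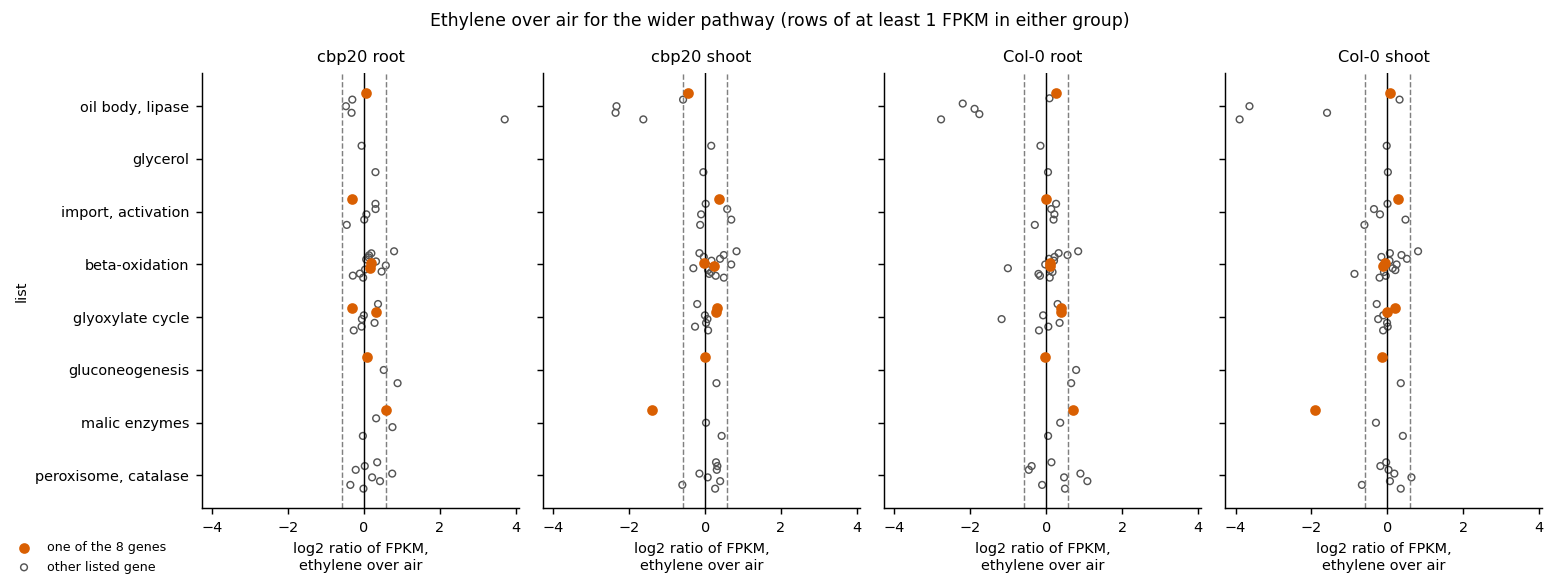
Log2 ratio of FPKM in ethylene over air (horizontal axes) for rows with at least 1 FPKM in either group, by list, in cbp20 roots, cbp20 shoots, Col-0 roots and Col-0 shoots. Filled orange points are the 8 counted genes, open points other listed genes, and dashed lines 1.5-fold, with OLEO1 at -3.63 in Col-0 shoots among the lowest points.

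Setting cbp20 against Col-0 asks whether the cbp20 mutation goes with other levels of these transcripts. The values come from tables that were normalized separately, so the ratios are a description, and the median log2 ratio over all rows lay between -0.03 and 0.06. MLS was lower in cbp20 in all 4 settings, by 2.197-fold in roots in ethylene, 2.07-fold in roots in air, 1.77-fold in shoots in ethylene and 2.15-fold in shoots in air. NADP-ME1 was higher in cbp20 in all 4, by 1.93-fold, 2.099-fold, 2.52-fold and 1.76-fold in the same order. Of 15721 rows tested in all 4 settings, 1.51% were called lower in each and 2.33% higher in each.

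Per setting, NADP-ME1 was the 1 gene of 8 called higher in cbp20, against 15.8% of all rows in roots in ethylene, 16.0% in roots in air, 16.2% in shoots in ethylene and 13.9% in shoots in air. In the same order 2, 1, 1 and 2 of 8 genes were called lower, against 12.7%, 11.1%, 18.1% and 16.5% of all rows. Counts of 1 or 2 of 8 rest on single genes and are not read as a difference from the shares of all rows. Beside MLS, the genes called lower were ICL in roots in ethylene, 1.67-fold lower, and PCK1 in shoots in air. The fold of PCK1, 1.50015, lay just past the minimum. The median log2 ratio of the 8 genes was -0.27, -0.15, -0.31 and -0.45.

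Called or not, each of the 8 genes had the same sign in all 4 settings. The share of all rows that did so was not computed, so this is not read as a trait of these genes. Some of the ratios were small, with log2 ratios of -0.04 for MFP2 in roots in ethylene and for ICL in roots in air. LACS7, KAT2, MFP2, ICL, MLS and PCK1 had lower values in cbp20 in all 4 settings, and SDP1 and NADP-ME1 higher values. For SDP1 the log2 ratios were 0.24, 0.45, 0.02 and 0.53 in roots in ethylene and in air and in shoots in ethylene and in air. For PCK1 they were -0.25, -0.34, -0.45 and -0.59.

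The tissue markers and seed markers also differed between the genotypes. The 5 shoot markers summed to 472 FPKM in cbp20 and 97.5 FPKM in Col-0 in roots in ethylene, and to 387 FPKM in cbp20 and 173 FPKM in Col-0 in roots in air. Of these 5, 5 were called higher in cbp20 in roots in ethylene (median log2 ratio 1.99), 4 in roots in air (1.32), 3 in shoots in ethylene (0.63) and 0 in shoots in air (0.21), and none was called lower. The seed markers summed to 12.8 FPKM in cbp20 and 37.3 FPKM in Col-0 in roots in ethylene, where 3 of 3 tested were called lower. In roots in air they summed to 14.3 FPKM in cbp20 and 99.96 FPKM in Col-0, with 3 of 4 called lower, and in shoots in air to 74.97 FPKM in cbp20 and 159 FPKM in Col-0, with 5 of 6 called lower. In shoots in ethylene they summed to 26.1 FPKM in cbp20 and 25.4 FPKM in Col-0, with 1 of 5 tested called higher and 0 lower. The part of shoot tissue and of seed tissue in the genotype differences was not tested.

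Of the wider lists, 3 rows were called higher in cbp20 and 0 lower of 42 in roots in ethylene, 3 higher and 5 lower of 43 in roots in air, 1 higher and 3 lower of 40 in shoots in ethylene, and 1 higher and 4 lower of 42 in shoots in air. PPDK was lower in cbp20 shoots, with 14.6 FPKM in cbp20 and 26.9 FPKM in Col-0 in ethylene and 11.9 and 21.1 FPKM in air. KAT5, a minor thiolase paralogue of KAT2, was lower in cbp20 in 3 of 4 settings, for example at 4.27 FPKM in cbp20 shoots and 9.13 FPKM in Col-0 shoots in ethylene. The other called rows of the glyoxylate list besides ICL and MLS came to 1, the peroxisomal malate dehydrogenase PMDH2, at 3.18 FPKM in cbp20 roots and 1.03 FPKM in Col-0 roots in ethylene.

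Roots against shoots shows where in the dark-grown seedling the route was expressed. ICL was lower in roots by 8.97-fold in cbp20 in ethylene, 5.80-fold in cbp20 in air, 6.94-fold in Col-0 in ethylene and 7.91-fold in Col-0 in air. MLS was lower in roots by 2.01-fold, 2.06-fold, 1.63-fold and 2.14-fold in the same order. Of 16867 rows tested in all 4 settings, 15.7% were called lower in roots in each. NADP-ME1 was 4.599-fold higher in roots in cbp20 in ethylene and 5.98-fold higher in Col-0 in ethylene, while in air it differed by 1.16-fold and 1.03-fold.

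ICL and MLS were the 2 genes of 8 called lower in roots in every setting, against 27.4% of all rows in cbp20 in ethylene, 26.0% in cbp20 in air, 30.3% in Col-0 in ethylene and 29.1% in Col-0 in air. This count is close to those shares and is not read as a difference from them. Called higher in roots were 1, 2, 2 and 0 of 8 in that order, against 32.1%, 28.9%, 31.4% and 27.8% of all rows. These were NADP-ME1 in cbp20 in ethylene, LACS7 and KAT2 in cbp20 in air, and KAT2 and NADP-ME1 in Col-0 in ethylene. The glyoxylate enzymes ICL and MLS on one hand and the thiolase KAT2 on the other thus had opposite tissue patterns, and PCK1, MFP2 and SDP1 differed by less than 1.5-fold between the tissues. By their run names all root libraries ran on lane 6 and those of a shoot group on lanes 5 and 6, whose part in this difference was not tested.

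From the lists around the cycle, PMDH2 and NADP-ME2 also differed by tissue. PMDH2, a malate dehydrogenase of the peroxisome, was at 3.18 FPKM in roots and 113 FPKM in shoots of cbp20 in ethylene, and at 1.03 and 94.0 FPKM in Col-0. NADP-ME2, the most abundant malic enzyme of roots here, was higher in roots, at 342 FPKM in roots and 107 FPKM in shoots of cbp20 in ethylene and 403 and 83.7 FPKM in Col-0. NADP-ME1, with at most 48.2 FPKM, stayed far below it in all groups.

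**Figure D5:**
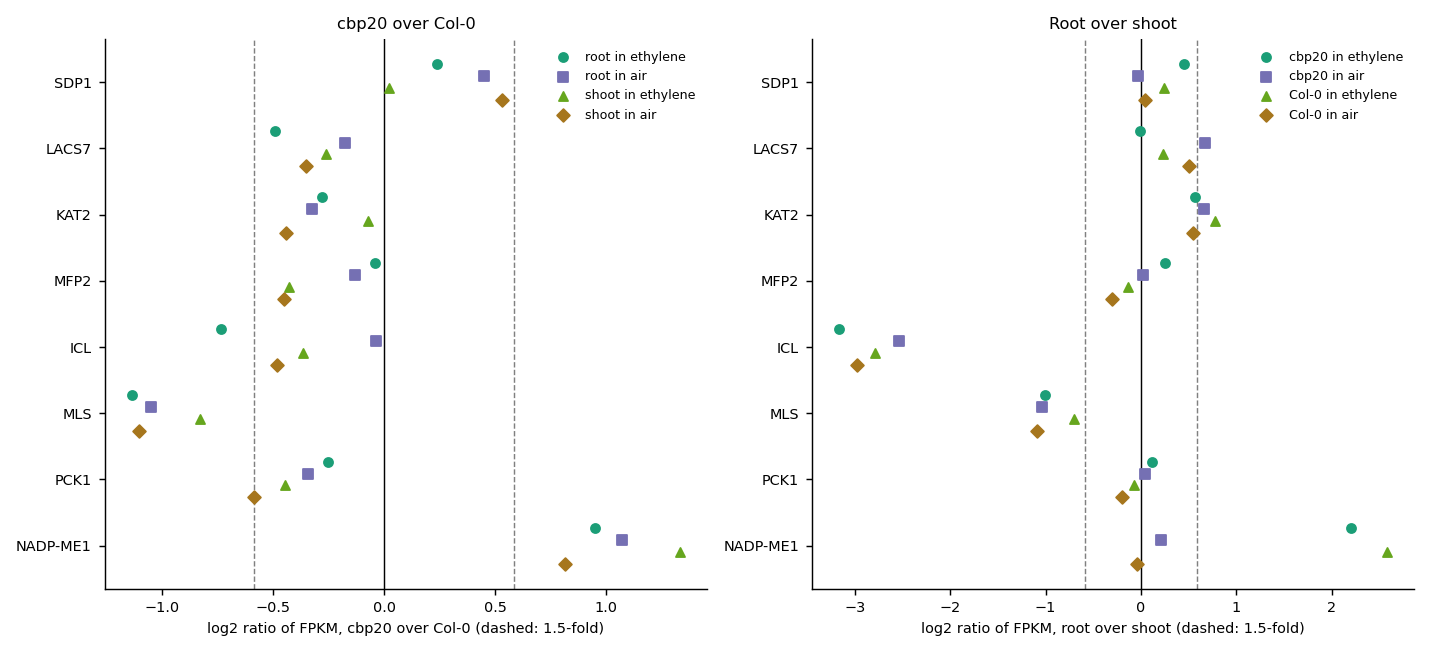
Log2 ratio of FPKM of cbp20 over Col-0 (left) and of root over shoot (right) for the 8 genes, 4 settings each, with the 1.5-fold minimum as dashed lines. MLS lies at -0.83 or below and NADP-ME1 at 0.81 or above in all 4 settings on the left, and ICL at -2.54 or below on the right.

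Over the 8 groups the genes did not share 1 pattern. On log2(FPKM + 1), Pearson's r was 0.91 for MFP2 and PCK1, 0.80 for LACS7 and KAT2, 0.80 for SDP1 and NADP-ME1, and 0.77 for ICL and MLS. It was -0.82 for KAT2 and ICL and -0.76 for MLS and NADP-ME1. The 8 points are groups that differ in tissue, genotype and treatment at once, and the values are a description.

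Among 4454 rows of single genes with at least 5 FPKM in every group and a range of at least 1 on the log2 scale, the 5 most like ICL over the 8 groups were THM1 (AT1G03680, Pearson's r of 0.996), AT5G20130, NUDX27, AT2G43030 and CLPP5. Many genes shared this tissue difference, since 672 rows had an r above 0.9. MLS had fewer close matches, with 22 rows above 0.9. The 5 nearest were AT2G15580 (r of 0.95), SEN1, AT5G03545, AT1G08280 and AT3G11560. SEN1 had 24.4 FPKM in ethylene and 19.1 FPKM in air in cbp20 roots, against 82.0 and 48.7 FPKM in Col-0 roots.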

How the data were processed

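RNA-seq was made from 16 libraries of 8 groups. Per the labels and the study's methods, the authors aligned reads to TAIR10 with TopHat2 2.0.9 and ran Cuffdiff 2.2.1, and they deposited 4 tables, 1 for each tissue and genotype, each with 1 FPKM value for air and 1 for ethylene pooled over 2 libraries. The tables also hold the authors' log2 fold change and p-value, which were not used. Rows that name no gene (1729, with 72.6% to 86.2% of the summed FPKM of a group) and rows whose gene name stands at several rows (2952) were left out, which left 31133, of which 1632 join several genes. FPKM does not give read depth, so its precision is unknown.

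Groups were taken from the labels. A row was tested with at least 1 FPKM in either group and called at 1.5-fold. Both minimums were taken from the study's methods, but were used here without its Cuffdiff test, and applying the FPKM minimum to either group was a choice made here. A figure legend of the study instead gives a 2-fold change, a lower FPKM filter and a corrected P for its ethylene-regulated genes. Ratios used no pseudocount. Patterns used log2(FPKM + 1). Comparisons of genotypes and tissues set values from separate tables side by side, and the 12 comparisons reuse the same 8 values of a gene. The members and gene lists were chosen with earlier results of these data known. Named from the lists were at most 4 called genes of each list with the largest change, and the 5 genes most like ICL and MLS. Listed names follow RefSeq TAIR10.1, and 2 listed identifiers with no symbol there were left out. Promoters were read from RefSeq TAIR10.1, where all of 23417 rows of 1 protein-coding gene overlapped the gene of that name. Alternatives were a 2-fold minimum, other FPKM minimums, pseudocounts, centring on the median, and keeping repeated names. Python 3.11.15, numpy 2.4.6, pandas 2.3.3 and matplotlib 3.10.9 were used.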

Additional observations from a re-analysis of the deposited data

Results flagged for a closer look

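For NADP-ME1 the log2 ratio of ethylene over air had opposite signs in the tissues of both genotypes. In cbp20 it was 0.58 in roots, where the gene was not called, and -1.40 in shoots. In Col-0 it was 0.70 in roots and -1.92 in shoots. The difference was not tested, since each group has 1 pooled value.

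Among the listed genes around it, OLEO4, an oleosin of low level, had log2 ratios of 3.71 in cbp20 roots and -1.76 in Col-0 roots, with -3.89 in Col-0 shoots. The cruciferin CRC had 0.78 in cbp20 roots, -1.97 in cbp20 shoots and -1.99 in Col-0 roots, with -3.94 in Col-0 shoots. The expansin EXPA2, an endosperm marker, had 0.65 in Col-0 roots, with -1.04 in Col-0 shoots. In cbp20 roots OLEO4 and CRC were near the 1 FPKM minimum, with 2.44 and 1.83 FPKM in ethylene and 0.187 and 1.07 FPKM in air. None of these differences between tissues or genotypes was tested.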

How the results depend on the processing

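No paired analysis was possible because the tables hold 1 pooled value per group, and leaving out each replicate was not run for the same reason. The 32 ethylene log2 ratios of the 8 genes kept their call under all 7 alternatives except NADP-ME1 in Col-0 roots, whose 0.70 is under a 2-fold minimum. PCK1 was no longer called lower in cbp20 shoots in air with log2(FPKM + 1), log2(FPKM + 0.1) or centring on the median, which left 1 of 8. At a 2-fold minimum the genes called were 0 higher in Col-0 roots in ethylene. In cbp20 against Col-0 they were 0 higher and 1 lower in roots in ethylene, 0 higher and 1 lower in shoots in air, and 0 lower in shoots in ethylene. In roots against shoots they were 1 higher and 1 lower in Col-0 in ethylene and 0 higher in cbp20 in air. The wider lists in ethylene were 1 higher in cbp20 roots, 0 higher and 3 lower in cbp20 shoots, 1 higher in Col-0 roots, and 0 higher and 3 lower in Col-0 shoots. Keeping rows with repeated names added the 8 rows of LACS6 and 2 of CSY2 and gave, as rows higher and lower in ethylene, 1 and 1 in cbp20 roots, 2 and 5 in cbp20 shoots, 4 and 1 in Col-0 roots and 2 and 2 in Col-0 shoots. In cbp20 against Col-0 it gave 2 and 3 in roots in air, 2 and 5 in roots in ethylene, 4 higher in shoots in air, and 2 and 3 in shoots in ethylene. In roots against shoots it gave 4 higher in cbp20 in ethylene, where a row of LACS6 was called lower beside ICL and MLS. In the other settings it gave 4 and 5 in cbp20 in air, 7 and 4 in Col-0 in ethylene, and 3 higher in Col-0 in air.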

Other observations

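Of 8 listed peroxisome genes outside the 10, 2 were called higher and 2 lower in roots than in shoots in cbp20 in ethylene, 2 and 2 in cbp20 in air, 2 and 1 in Col-0 in ethylene, and 0 and 3 in Col-0 in air. The shares of all rows called higher and lower were 32.1% and 27.4%, 28.9% and 26.0%, 31.4% and 30.3%, and 27.8% and 29.1% in the same order. Counts this small are not read as a difference from these shares. The catalase CAT3 had 372 FPKM in roots and 3544 FPKM in shoots of cbp20 in ethylene, and 330 and 3901 FPKM in Col-0. CAT2 was called lower in ethylene in shoots of both genotypes, at 121 FPKM in ethylene and 184 FPKM in air in cbp20 and 123 and 196 FPKM in Col-0. PEX14, a docking protein for peroxisomal import, was called higher in ethylene in roots of both genotypes, at 25.9 FPKM in ethylene and 15.5 FPKM in air in cbp20 and 30.1 and 16.1 FPKM in Col-0. CAT1 was called higher in ethylene in Col-0 roots, with 40.0 FPKM in ethylene and 18.9 FPKM in air.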
